A study of Homo sapiens with 24 samples.

Results

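The genes encoding the condensin subunits were followed in LNCaP prostate cancer cells after knockdown of the lncRNA TAPIR-1 or TAPIR-2. All probes whose RefSeq accession belongs to SMC2, SMC4, NCAPG, NCAPH, NCAPD2, NCAPG2 or NCAPD3 were taken, which gave 10 of 50599 probes at 24 h and 10 of 58201 probes at 48 h, for 7 of the 20992 and 22439 genes named in this way. LNCaP is an established line from a lymph node metastasis. The cells were electroporated with a Stealth siRNA duplex against TAPIR-1 (si-A1), with a duplex against TAPIR-2 (si-A2) or with a negative control duplex of medium GC content (scramble), and RNA was taken 24 h or 48 h later. Each of these 6 groups held 4 biological replicates, and each RNA went onto a one-colour Agilent array of its own. All groups share the cell line, the culture and the electroporation, while the duplex, the time and, with the time, the version of the array differ. Each TAPIR transcript was targeted with 1 duplex, so the loss of the transcript and other effects of its duplex cannot be told apart in these arrays.

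Condensins are ring-shaped ATPases that compact and stiffen chromosomes for mitosis. SMC2 and SMC4 form the core of both complexes, condensin I adds the kleisin NCAPH with the HEAT-repeat subunits NCAPG and NCAPD2, and condensin II adds NCAPH2 with NCAPG2 and NCAPD3. Condensin II resides in the nucleus throughout the cell cycle, whereas condensin I reaches chromosomes after nuclear envelope breakdown.

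The promoters of these genes are shown first because most of the transcripts fell together, with NCAPH and NCAPD3 not called at 24 h. Many mitotic genes carry the cell cycle genes homology region (CHR), a TTTGAA element close to the start site. The MuvB-containing DREAM and MYB complexes bind it. RefSeq (GRCh38.p14) gives 10 transcription starts for the 7 genes, and each window of 300 bases, from 250 bases before to 50 bases after the start, was searched on both strands. TTTGAA was found in 6 of the 10 windows, which belong to 6 of the 7 genes, and in 15.2% of all 35116 promoter windows. NCAPH was the gene without it, while NCAPD3, which has it, was not called at 24 h either. A link between the element and the changes was not tested. The variant TTCGAA was in none of the 10 windows and in 1.45% of all promoters. CCAAT, the box bound by NF-Y, was found in windows of NCAPH, NCAPD2 and NCAPD3, that is in 3 of 10, and in 34.6% of all promoters. The E2F words TTTCCCGC, TTTCGCGC, TTTGCCGC and TTTGGCGC were searched as a group, and matched 1 of the 10 windows, upstream of the second start of NCAPD3, against 3.31% of all promoters. None of the matches in the members shared bases with another. These are matches of letters, with no measurement of binding, and an absent match says only that the letters are not in the window.

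For 6 of the genes, the 150 bases before a start are printed 5′ to 3′ on the strand of the gene, with capitals for TTTGAA and for CCAAT, each in either orientation. SMC2 (chr9:104094159-104094311, plus strand) and NCAPD3 (second start, chr11:134223965-134224117, minus strand) run 3 bases past the start, since the element crosses it, and both stretches lie inside the annotated span of the gene. SMC4 (chr3:160399500-160399649), NCAPG (chr4:17810829-17810978), NCAPH (chr2:96335616-96335765) and NCAPD2 (chr12:6493952-6494101) are on the plus strand and end at the base before the first start of the gene. In NCAPG2 (start at the end of its span, chr7:158631169-158704804, minus strand), TTTGAA begins 36 bases into the transcript, outside such a stretch.
SMC2: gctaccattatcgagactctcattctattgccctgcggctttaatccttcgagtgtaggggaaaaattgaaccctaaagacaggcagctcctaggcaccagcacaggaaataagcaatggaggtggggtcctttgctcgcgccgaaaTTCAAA
SMC4: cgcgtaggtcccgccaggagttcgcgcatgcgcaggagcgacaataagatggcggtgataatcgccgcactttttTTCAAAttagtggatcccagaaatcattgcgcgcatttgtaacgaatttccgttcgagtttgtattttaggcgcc
NCAPG: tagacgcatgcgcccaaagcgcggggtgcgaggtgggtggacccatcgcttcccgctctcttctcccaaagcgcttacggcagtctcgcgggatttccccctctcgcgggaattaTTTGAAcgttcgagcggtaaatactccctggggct
NCAPD2: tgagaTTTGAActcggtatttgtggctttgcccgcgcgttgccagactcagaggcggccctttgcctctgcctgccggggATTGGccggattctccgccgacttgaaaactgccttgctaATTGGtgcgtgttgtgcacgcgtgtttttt
NCAPD3: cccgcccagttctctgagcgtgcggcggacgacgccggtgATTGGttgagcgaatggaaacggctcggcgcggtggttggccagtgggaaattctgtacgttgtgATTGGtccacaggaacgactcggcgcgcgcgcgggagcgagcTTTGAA
NCAPH: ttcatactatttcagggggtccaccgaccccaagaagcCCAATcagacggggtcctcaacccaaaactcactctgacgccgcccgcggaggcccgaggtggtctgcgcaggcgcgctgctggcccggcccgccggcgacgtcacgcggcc

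The depth of the arrays was similar between groups. The median processed intensity of an array was between 24.4 and 57.2 at 24 h, with 58.5% to 71.7% of spots well above background, and between 20.4 and 32.2 with 60.3% to 66.5% on 11 arrays at 48 h. The array of si-A2 replicate 2 at 48 h was dim, with a median of 13.9, and gave values for probes of the same gene that lay far apart, such as 6.34 and 1.01 on the log2 scale for NCAPD2. It was left out, so that si-A2 at 48 h has 3 replicates. All 7 luminal prostate markers, KLK3 among them, were well above background on all arrays used. Of the basal cell markers, KRT5 was well above background on no array, KRT14 on 10 of 12 arrays at 24 h and 10 of 11 at 48 h, and TP63 on 7 of 12 and 1 of 11. Of the fibroblast markers, COL1A2 was on none, COL1A1 on 3 of 12 and 0 of 11, and DCN on 2 of 12 and 11 of 11. No basal or fibroblast marker was called in any comparison. Probes for the leukocyte genes PTPRC and CD3E were well above background on all arrays and not called in any comparison. TAPIR-2 itself was measured by a dim probe. At 24 h this probe read 4.81 to 5.25 in scramble and 3.12 to 4.71 after si-A2, with no overlap. Replicates 2 and 4 of si-A2 were not well above background. After si-A1 the probe read 4.20 to 4.94, which overlapped with both other groups. At 48 h it read 4.01 to 5.41 in scramble and 3.83 to 5.63 after si-A2, where the groups overlapped. Another TAPIR-2 probe at 48 h was well above background on no array used. TAPIR-1 was not analysed here.

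At 24 h, 5 of the 7 subunits fell after either siRNA. SMC2, SMC4, NCAPG, NCAPD2 and NCAPG2 were lower in all replicates of si-A1 and of si-A2 than in any scramble replicate, by 2.09- to 4.50-fold where the signal stayed above background, while the kleisin of condensin I, NCAPH, stayed near its scramble level. NCAPD3 of condensin II lay between, with small decreases that did not pass the test. A probe was called at an adjusted p below 0.01 (limma, Benjamini-Hochberg over all tested probes) and a log2 change of at least 0.5. Called lower were 5 of 7 genes after si-A1 against 1.07% of all 43957 probes tested, and 5 of 7 after si-A2 against 0.887%. On the log2 scale the subunits had a median change of -1.46 (si-A1) and -1.26 (si-A2), and all tested probes had 0.05 and 0.04. No overlap with scramble was found for 6 of 7 subunits in each comparison, against 5.44% (si-A1) and 4.45% (si-A2) of probes that lay lower without overlap. In RNA of whole cultures, less transcript per cell and fewer cells that express it cannot be told apart.

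The values are log2 intensities after quantile normalization, given for replicates 1 to 4, and they compare arrays for a probe, not probes with each other. SMC2, an ATPase arm of the ring, read 6.82, 6.90, 7.44 and 6.81 in scramble, 5.82, 5.13, 5.79 and 5.51 after si-A1, and 5.71, 5.39, 5.18 and 5.57 after si-A2. All knockdown arrays lay below all scramble arrays, among which replicate 3 stood highest, and the knockdown groups overlapped. The change was -1.43 (SE 0.208, 2.70-fold, limma adjusted p = 0.00395) for si-A1 and -1.53 (SE 0.208, adjusted p = 0.00264) for si-A2. A second, dimmer SMC2 probe was well above background on 1 of 4 si-A1 arrays and on no si-A2 array, and was at least 2.01-fold lower after si-A2 (limma adjusted p = 0.0368, not called).

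SMC4, the partner arm, read 7.23, 7.01, 7.36 and 7.42 in scramble, 5.76, 5.98, 5.86 and 5.56 after si-A1, and 5.78, 6.14, 5.91 and 5.92 after si-A2. The knockdown groups overlapped each other and lay well below the lowest scramble array. SMC4 fell by 1.46 after si-A1 (SE 0.148, 2.76-fold, limma adjusted p = 0.000378) and fell by 1.32 with si-A2 (SE 0.148, adjusted p = 0.000743), and its second probe was called in both comparisons too, at -1.31 and -1.30.

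Of the condensin I subunits, NCAPG, a HEAT-repeat protein that helps the ring to hold DNA, read 5.53, 5.50, 5.07 and 5.22 in scramble, 4.21, 4.42, 2.75 and 3.50 after si-A1, and 3.81, 4.17, 2.87 and 3.49 after si-A2. The groups did not overlap with scramble, but after knockdown the signal was close to background, with 2 of 4 si-A1 arrays and 0 of 4 si-A2 arrays well above it. The fitted change for si-A1 was -1.61 (SE 0.229, limma adjusted p = 0.00345). The group mean after si-A2 was at least 2.89-fold lower than in scramble, without allowance for the spread between replicates (limma adjusted p = 0.00206).

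NCAPD2, the other HEAT-repeat subunit of condensin I, read 8.81, 8.80, 8.81 and 8.97 in scramble, 7.55, 7.02, 7.30 and 7.18 after si-A1, and 7.42, 7.84, 7.78 and 8.09 after si-A2. Scramble was tight apart from replicate 4, all knockdown arrays were lower, and si-A2 tended above si-A1 with some overlap. NCAPD2 fell by 1.58 after si-A1 (SE 0.162, 3.00-fold, limma adjusted p = 0.000416) and fell by 1.06 after si-A2 (SE 0.162, 2.09-fold, adjusted p = 0.00581). Its second probe was called in both comparisons, at -1.83 and -1.03.

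NCAPH, the kleisin that closes the condensin I ring, read 5.77, 5.51, 5.57 and 5.79 in scramble, 5.59, 5.46, 5.42 and 5.39 after si-A1, and 5.79, 5.53, 5.75 and 5.22 after si-A2. All 3 groups overlapped. The change was -0.19 for si-A1 (95% interval -0.52 to 0.14, limma adjusted p = 0.597) and -0.08 for si-A2 (95% interval -0.41 to 0.25, adjusted p = 0.865). For this probe, a decrease as large as those of the 5 called subunits lies outside both intervals. No other probe was mapped to NCAPH.

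Of the condensin II subunits, NCAPG2, the counterpart of NCAPG, read 7.24, 7.10, 7.54 and 6.86 in scramble, 5.16, 5.13, 4.84 and 4.94 after si-A1, and 6.03, 5.84, 5.98 and 5.84 after si-A2. The 3 groups were fully separated, with si-A1 lowest. NCAPG2 fell by 2.17 after si-A1 (SE 0.157, 4.50-fold, limma adjusted p = 5.49e-05) and fell by 1.26 after si-A2 (SE 0.157, 2.40-fold, adjusted p = 0.00146).

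NCAPD3, the counterpart of NCAPD2, read 8.54, 8.44, 8.35 and 8.37 in scramble, 8.04, 8.08, 8.07 and 7.87 after si-A1, and 7.71, 7.62, 8.02 and 7.72 after si-A2. Both knockdown groups lay below scramble without overlap, by less than for the other non-kleisin subunits. The changes of -0.41 (SE 0.128, limma adjusted p = 0.171) and -0.66 (SE 0.128, adjusted p = 0.0268) were not called. For NCAPH2, the kleisin of condensin II and not among the 7 genes, the brightest of 3 probes gave -0.01 (si-A1) and -0.15 (si-A2) and overlapped with scramble, while the dimmest gave -0.51 (limma adjusted p = 0.0627) and -0.62 (adjusted p = 0.0291) without overlap, so that the probes disagree, and none was called.

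The counts depended in part on single arrays, since the 5 calls after si-A1 became 3 without si-A1 replicate 4 (SMC4, NCAPD2 and NCAPG2), and the 5 after si-A2 became 2 without si-A2 replicate 3 (SMC4 and NCAPG2) and 3 without si-A2 replicate 1, si-A2 replicate 2 or scramble replicate 2. With only the groups compared in the fit they were 3 and 2, and with normexp background correction the medians were -0.81 and -0.77.

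**Figure D1:**
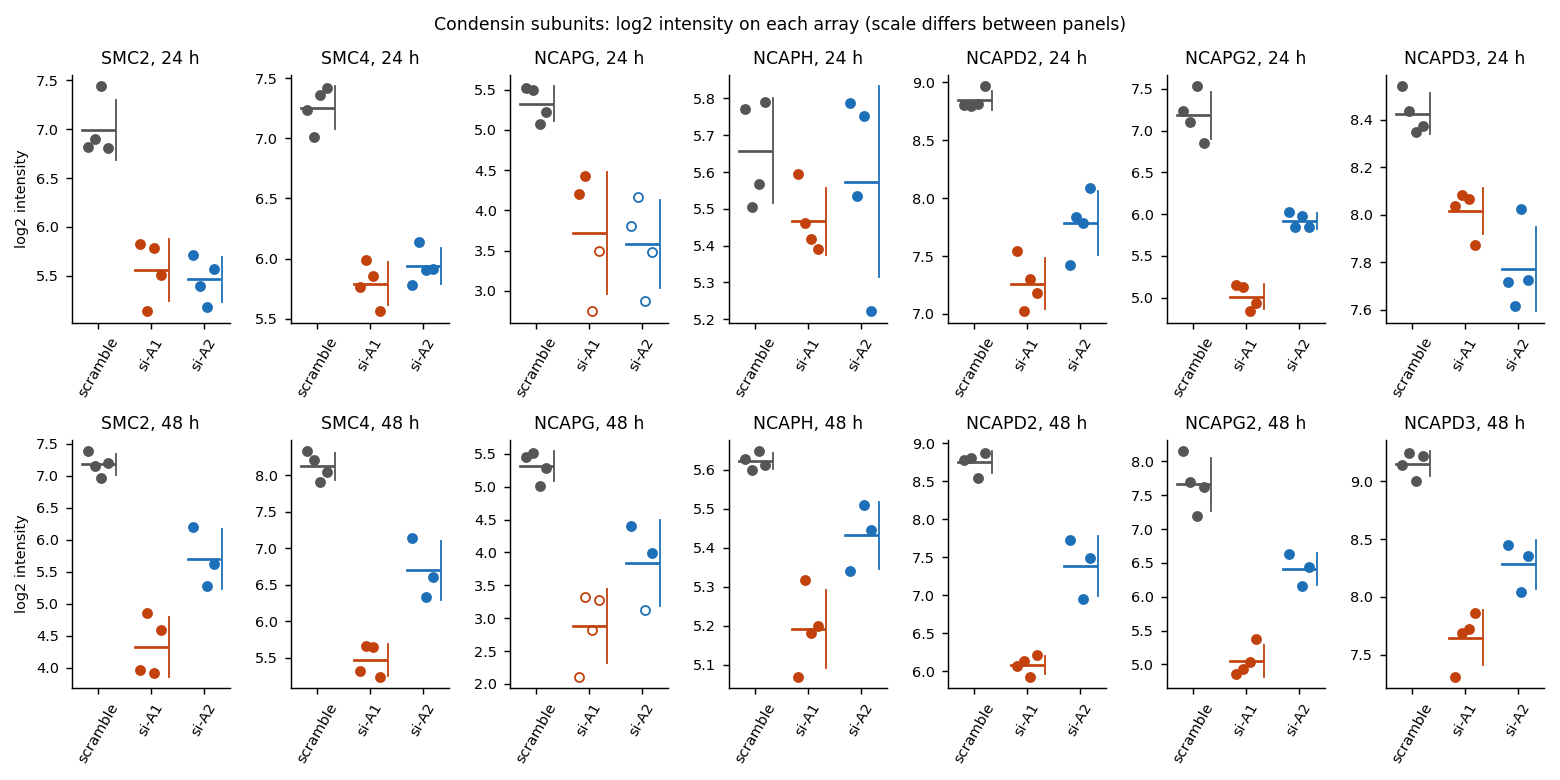
Log2 intensity of the 7 condensin subunits (1 probe a gene, the brightest over the time point) on each array for scramble (grey), si-A1 (orange) and si-A2 (blue) at 24 h (upper row) and 48 h (lower row), with the axis scaled to each panel. Points are replicates, open where the spot was not well above background, horizontal lines are group means and vertical lines are 1 SD. The knockdown arrays lie below scramble without overlap in 6 of 7 panels at 24 h (the exception is NCAPH) and in all 7 at 48 h.

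The siRNAs were also compared directly at 24 h, to see whether the subunits were lower after si-A1 or after si-A2. No subunit was called (0 of 7, against 0.416% of probes called either way), and 2 of 7 had an unadjusted p below 0.05 against 11.5% of all tested probes. NCAPG2 lay 0.91 higher with si-A2 (SE 0.157, 95% interval 0.56 to 1.25, limma adjusted p = 0.0193), and it was the subunit whose groups did not overlap (1 of 7, against 10.7% of probes without overlap in either direction). NCAPD2 was 0.52 higher (95% interval 0.16 to 0.88, limma adjusted p = 0.189), and its second probe 0.80 higher without overlap (adjusted p = 0.0383). NCAPG was well above background on 2 si-A1 arrays and no si-A2 array, so no difference is given for it. The differences of the other 4 had intervals that include 0, at -0.10 for SMC2 (-0.56 to 0.36), 0.14 for SMC4 (-0.18 to 0.47), 0.11 for NCAPH (-0.22 to 0.44) and -0.25 for NCAPD3 (-0.53 to 0.04). Without scramble replicate 3, an array of the same fit but of neither group compared, 1 subunit (NCAPG2) was called.

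At 48 h, si-A1 lowered 6 of the 7 subunits. Both ATPase arms, NCAPD2 and NCAPG2 were between 6.11- and 7.21-fold below scramble, NCAPG was no longer well above background, NCAPD3 was now called at 2.84-fold lower, and NCAPH differed by 1.35-fold. The decreases after si-A2 were of the size seen at 24 h, and 2 subunits, SMC4 and NCAPD2, passed the test. Called lower were 6 of 7 genes after si-A1, against 4.64% of 40853 probes, and 2 of 7 after si-A2, against 0.563% of 40856. The subunits had a median change of -2.61 (si-A1) and -1.34 (si-A2), and all tested probes had 0.06 and 0.02. All 7 subunits lay below scramble without overlap in both comparisons, against 9.25% (si-A1) and 7.29% (si-A2) of probes lower without overlap.

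SMC2 at 48 h read 7.39, 7.16, 6.97 and 7.20 in scramble, 3.96, 4.85, 3.91 and 4.59 after si-A1, and 6.20, 5.28 and 5.62 after si-A2, whose replicates here and below are 1, 3 and 4. The 3 groups were separated, with si-A2 between scramble and si-A1. It fell by 2.85 after si-A1 (SE 0.230, 7.21-fold, limma adjusted p = 7.24e-05), and the change of -1.43 after si-A2 was not called (SE 0.251, adjusted p = 0.0177). Its second probe was not tested, as it exceeded the threshold on too few arrays, and was at least 2.85-fold lower after si-A1 and at least 2.63-fold lower after si-A2.

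SMC4 at 48 h read 8.33, 8.21, 7.90 and 8.04 in scramble, 5.32, 5.66, 5.65 and 5.24 after si-A1, and 7.14, 6.33 and 6.61 after si-A2. Again no groups overlapped. SMC4 fell by 2.66 after si-A1 (SE 0.153, 6.30-fold) and fell by 1.38 after si-A2 (SE 0.167, 2.60-fold), with limma adjusted p-values of 2.84e-05 and 0.00499. Its second probe gave -2.55 (called) and -1.19 (limma adjusted p = 0.0229, not called).

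NCAPG at 48 h read 5.46, 5.51, 5.01 and 5.29 in scramble, 2.11, 3.33, 2.82 and 3.28 after si-A1, and 4.40, 3.12 and 3.99 after si-A2. No si-A1 array was well above background, replicate 3 of si-A2 was not either, and the siRNA groups overlapped there. The group mean after si-A1 was at least 4.28-fold lower than in scramble, without allowance for the spread between replicates (limma adjusted p = 0.00116). The change of -1.44 after si-A2 was not called (SE 0.351, limma adjusted p = 0.0591).

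NCAPD2 at 48 h read 8.78, 8.81, 8.54 and 8.87 in scramble, 6.07, 6.14, 5.93 and 6.21 after si-A1, and 7.72, 6.95 and 7.49 after si-A2, here from the second of its probes. The si-A1 arrays were tight and lowest, and the groups did not overlap. NCAPD2 fell by 2.66 after si-A1 (SE 0.151, 6.33-fold, limma adjusted p = 2.84e-05) and fell by 1.34 after si-A2 (SE 0.164, 2.52-fold, adjusted p = 0.00531), and its other probe was called in both, at -2.87 and -1.59.

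NCAPH at 48 h read 5.63, 5.60, 5.65 and 5.61 in scramble, 5.07, 5.32, 5.18 and 5.20 after si-A1, and 5.34, 5.51 and 5.45 after si-A2. The order was scramble, si-A2, si-A1, with no overlap. The difference after si-A1 of -0.43 (SE 0.0823, 95% interval -0.62 to -0.25, limma adjusted p = 0.00702) was past the p threshold and under the size required for a call, and that after si-A2 was -0.20 (95% interval -0.40 to 0.00, adjusted p = 0.267).

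NCAPG2 at 48 h read 8.15, 7.69, 7.19 and 7.62 in scramble, 4.85, 4.93, 5.04 and 5.38 after si-A1, and 6.63, 6.16 and 6.44 after si-A2. The groups were again fully separated. NCAPG2 fell by 2.61 after si-A1 (SE 0.201, 6.11-fold, limma adjusted p = 5.83e-05), at -3.03 on the first slide and -2.19 on the second, and the change of -1.23 after si-A2 was not called (SE 0.220, adjusted p = 0.0185).

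NCAPD3 at 48 h read 9.14, 9.25, 9.01 and 9.22 in scramble, 7.31, 7.69, 7.72 and 7.86 after si-A1, and 8.45, 8.04 and 8.35 after si-A2. Here too si-A2 lay between the other groups, without overlap. NCAPD3 fell by 1.51 after si-A1 (SE 0.142, 2.84-fold, limma adjusted p = 0.000163), and the change of -0.87 after si-A2 was not called (SE 0.155, adjusted p = 0.0182). The brightest NCAPH2 probe changed by -0.14 and -0.18 and no NCAPH2 probe was called at 48 h.

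With si-A1, the 6 calls held whichever array was left out, and 1 of them (NCAPD2) held with the dim array kept in the fit, while the median was -1.31 with normexp background correction. With si-A2, the count was 0 with the replicate number as a block (limma adjusted p = 0.0187 for SMC4 and 0.0106 for NCAPD2), 1 without si-A1 replicate 1, 3 or 4 and 0 without any other array, 0 with the dim array kept, 5 with normexp and 6 without background correction.

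**Figure D2:**
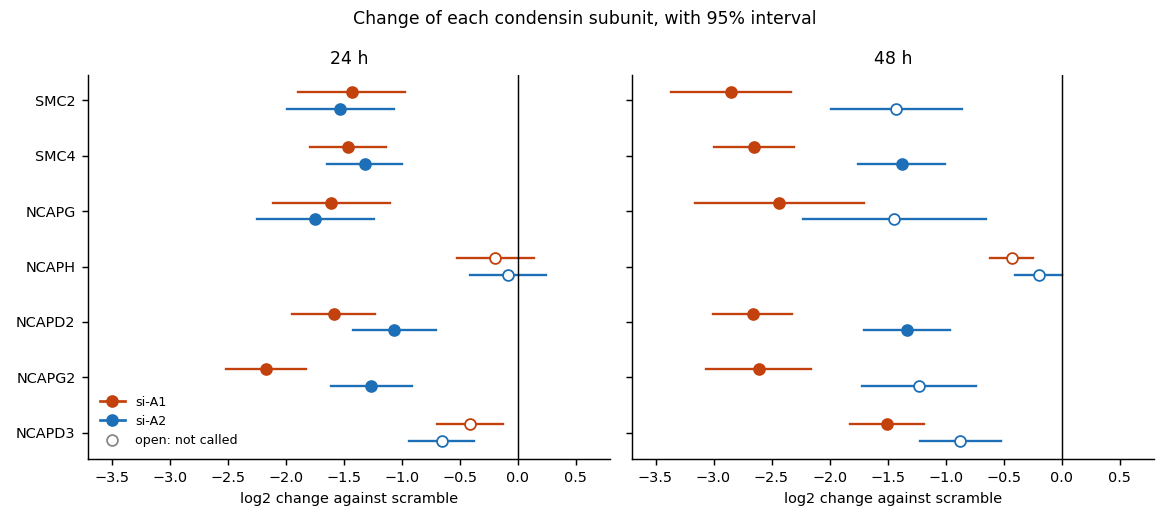
Log2 change of each condensin subunit against scramble at 24 h (left) and 48 h (right) for si-A1 (orange) and si-A2 (blue), with bars for the 95% interval of the fit and filled points for called changes. After si-A1 the changes run from -2.17 to -0.19 at 24 h and from -2.85 to -0.43 at 48 h, with NCAPH nearest to 0 in each set, and the NCAPG points for si-A2 at 24 h and si-A1 at 48 h are fitted values of levels that are bounds.

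The direct comparison of the siRNAs at 48 h asked whether the subunits were lower after si-A1 than after si-A2. Levels after si-A2 were above those after si-A1 for all 7 subunits, with a median difference of 1.28, and 6 of 7 did not overlap (8.46% of probes lay higher without overlap). Called higher after si-A2 were 3 of 7, against 1.42% of probes. NCAPG2 was 1.38 higher (SE 0.220, limma adjusted p = 0.00739), NCAPD2 1.33 higher (SE 0.164, adjusted p = 0.00267) and SMC4 1.28 higher (SE 0.167, adjusted p = 0.00308). SMC2 differed by 1.42 (SE 0.251, limma adjusted p = 0.0117), NCAPD3 by 0.63 (adjusted p = 0.0425) and NCAPH by 0.23 (adjusted p = 0.171), none of them called. NCAPG, with no si-A1 array well above background, had a group mean at least 1.54-fold higher after si-A2, without allowance for the spread between replicates. Its groups overlapped, and the interval of the fit, 0.20 to 1.78 on the log2 scale, reached below that bound (limma adjusted p = 0.14, not called). With the replicate number as a block, only NCAPD2 stayed called (SMC4 adjusted p = 0.0158, NCAPG2 0.0179), and without si-A2 replicate 1 or replicate 4 none did. Without si-A1 replicate 2 or replicate 3 the count was 1, and with the dim array kept it was 0.

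The effect at 48 h was set against that at 24 h as an interaction, over the 32946 (si-A1) and 32949 (si-A2) probes tested on both array versions, since each time point was run on its own version. After si-A1, the fitted difference between the effects was below 0 for all 7 subunits, with a median of -1.08, and 2 were called, against 0.212% of probes, with 4 of 7 at an unadjusted p below 0.05 against 14% of probes. These were SMC4 at -1.23 (SE 0.209, 95% interval -1.67 to -0.79, limma adjusted p = 0.00814) and NCAPD3 at -1.08 (SE 0.184, 95% interval -1.47 to -0.70, adjusted p = 0.00814). Next were SMC2 at -1.37 (limma adjusted p = 0.0374) and NCAPD2 at -1.32 (adjusted p = 0.0242, and -0.86 for its second probe), both not called. NCAPG2, which was already 4.50-fold down at 24 h, differed by -0.45 (95% interval -0.99 to 0.08), and NCAPH by -0.23 (-0.57 to 0.11). For NCAPG no size is given, as no si-A1 array was well above background at 48 h and the effect there is a bound.

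After si-A2, no subunit had a called interaction by limma (0 of 7, against 0.0455% of probes), 0 of 7 had an unadjusted p below 0.05 against 7.65% of probes, and 3 of 7 fitted differences were above 0, with a median of -0.08. Without NCAPG, whose effect at 24 h is a bound, they ranged from -0.53 (NCAPD2, 95% interval -1.13 to 0.06) to 0.10 (SMC2, 95% interval -0.58 to 0.77). The 2 calls for si-A1 were lost with the replicate number as a block (limma adjusted p = 0.0293 for SMC4 and 0.0153 for NCAPD3) and with the dim array kept, and they stayed 2 without 24 h si-A1 replicate 4, 24 h si-A2 replicate 2, 48 h si-A2 replicate 1 or 48 h si-A2 replicate 3 and became 0 or 1 without any other array. Time point and array version cannot be told apart.

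**Figure D3:**
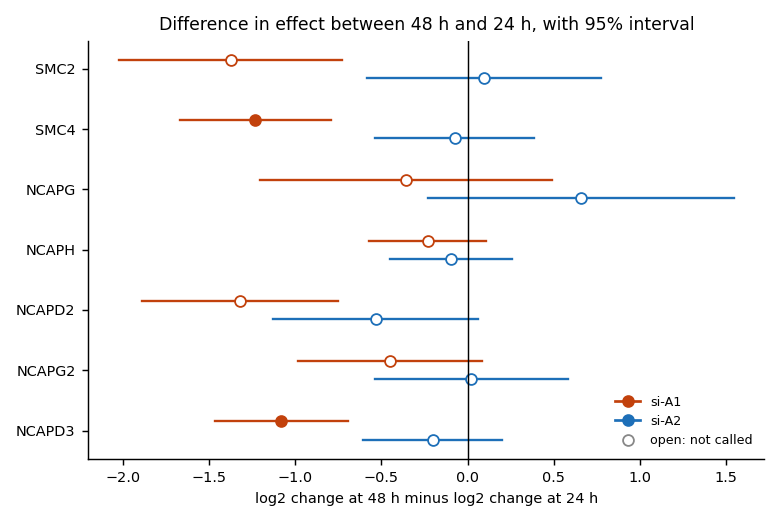
Difference between the log2 change at 48 h and that at 24 h for each condensin subunit after si-A1 (orange) and si-A2 (blue), with 95% intervals and filled points for called differences. All 7 si-A1 points lie below 0, and the si-A2 points other than NCAPG lie between -0.53 and 0.10. Both NCAPG points rest on groups with no array well above background and are not sizes of a difference.

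The proteins that work with condensin on mitotic chromosomes were taken as a list of 17 genes. At 24 h, 7 of 17 were called lower after si-A1 and 5 of 17 after si-A2, against 1.07% and 0.887% of probes, with 16 and 15 of 17 below 0 and a median change of -1.0 in both. TOP2A, the topoisomerase that decatenates sister chromatids, changed by -1.67 with si-A1 and by -1.89 with si-A2 (SE 0.158). The chromosomal kinesin KIF4A, which binds condensin I, changed by -1.26 and -1.36 (SE 0.148), AURKB, the kinase of the chromosomal passenger complex, by -1.68 and -1.74 (SE 0.195), and CDK1, which phosphorylates condensin at mitotic entry, by -2.41 and -2.27 (SE 0.329). MKI67, a surfactant of mitotic chromosomes, changed by -1.07 and -1.06 (SE 0.151), and all 5 were called with both siRNAs. KIF22, another chromokinesin, and the kinase PLK1 were called after si-A1 at -1.0 (SE 0.140) and -1.31 (SE 0.216), and after si-A2 they read -0.83 and -1.16 (limma adjusted p = 0.0114 and 0.0208). TOP2B, the isoform also made by resting cells, changed by -0.02 in both.

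At 48 h, 14 of the 17 were tested. After si-A1, 7 of 14 were called lower, against 4.64% of probes, among them KIF4A at -3.59 (SE 0.309), CDK1 at -3.47 (SE 0.274), TOP2A at -3.44 (SE 0.208) and KIF22 at -2.12 (SE 0.114), with a median of -0.71 for the list. Also called were MKI67 (-1.04, SE 0.191) and SET, a phosphatase inhibitor (-0.66, SE 0.118). After si-A2, 2 of 14 were called, against 0.563% of probes, TOP2A at -1.82 (SE 0.226) and KIF22 at -0.97 (SE 0.124), and the median was -0.37. TOP2B was at -0.10 and -0.03.

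The other complexes built on SMC proteins, cohesin and SMC5/6, were taken as a list of 10 genes. At 24 h none was called after either siRNA (0 of 10 by limma), against 1.07% and 0.887% of probes called lower. The medians were -0.32 and -0.44, with 7 and 8 of 10 below 0. SMC1A, an arm of cohesin, had the lowest value after si-A1 at -1.03 (limma adjusted p = 0.0919). At 48 h, 4 of 10 were called lower after si-A1, against 4.64% of probes, and all 4 encode cohesin subunits, namely STAG1 (-1.74, SE 0.218), SMC1A (-1.48, SE 0.0845), RAD21 (-1.28, SE 0.102) and SMC3 (-0.58, SE 0.0966). After si-A2, RAD21 (-0.89, SE 0.111) and SMC1A (-0.75, SE 0.0921) were called, 2 of 10 against 0.563% of probes. The list medians at 48 h were -0.34 and -0.29, with 9 of 10 below 0 in each comparison. No member of SMC5/6 was called at either time.

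**Figure D4:**
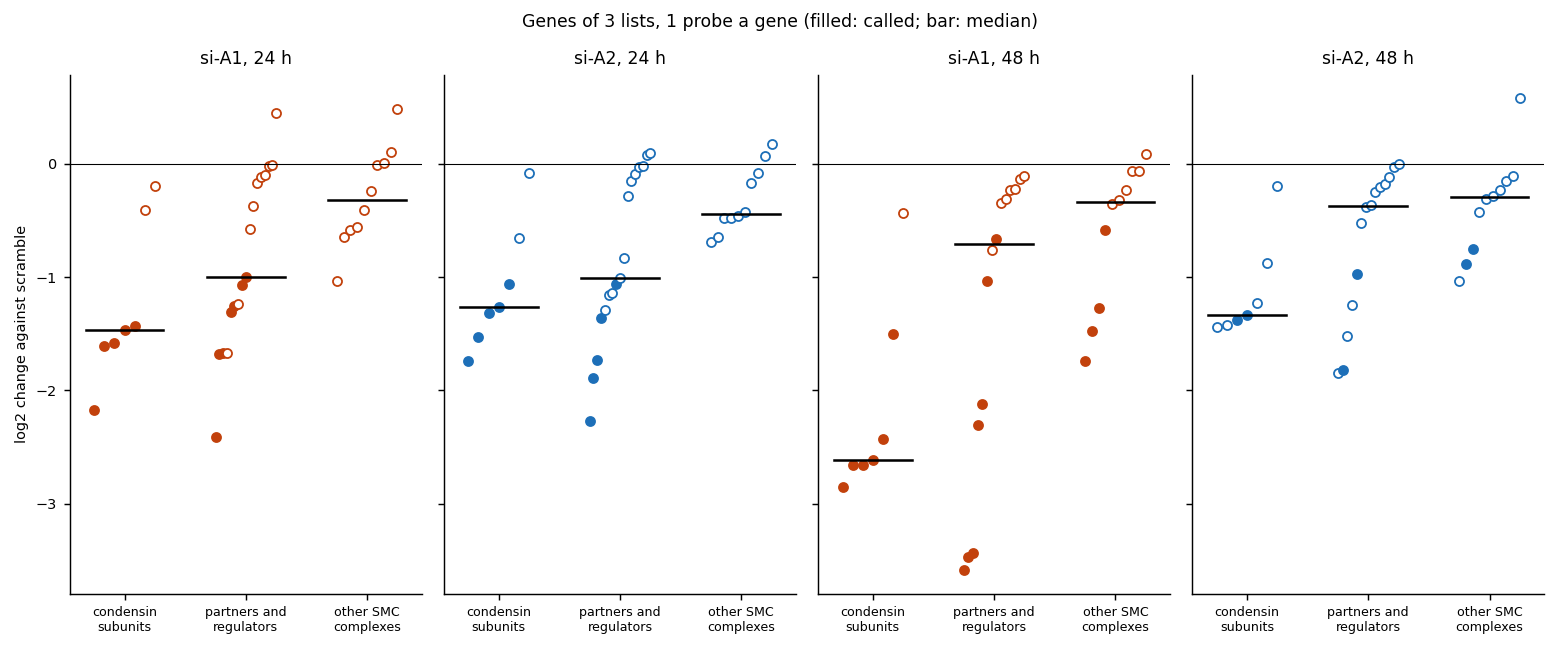
Log2 change against scramble of the tested genes of 3 lists, the condensin subunits, the condensin partners and regulators and the other SMC complexes, for si-A1 (orange) and si-A2 (blue) at 24 h and 48 h. Each point is the brightest tested probe of a gene, filled where called, and the bar is the list median, which for the condensin subunits is -1.46, -1.26, -2.61 and -1.34 from left to right.

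The subunits also differed in how closely they followed each other over the 12 arrays at 24 h. Each profile was centred on its mean and set against the mean profile of the other 6 subunits, with the root mean square of the difference as the measure. SMC4 was nearest to the others (0.203 log2 units), followed by NCAPD2 (0.289), SMC2 (0.352), NCAPD3 (0.442), NCAPG2 (0.486), NCAPG (0.583) and NCAPH (0.602). The NCAPG value rests in part on signal near background, with 2 of 4 si-A1 arrays and 0 of 4 si-A2 arrays well above it. Other genes were compared with the mean profile of all 7 if well above background on all 12 arrays. A gene that fell to background could thus not be listed. Of these 13566 genes, the nearest were PCNA (0.146), ERCC6L (0.158), TACC3 (0.161), FOXM1 (0.163) and MKI67 (0.174), where the median over all of them was 0.625. These distances describe 12 arrays that share 3 groups and were not tested.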

How the data were processed

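RNA was labelled with Cy3 and hybridised to SurePrint G3 arrays, version 2 at 24 h and version 3 at 48 h. The authors deposited the Feature Extraction output for every array, whose processed signal is a background-subtracted intensity on a linear scale that was not normalized between arrays. They also deposited a table of log2 values for each time point. Its columns share a median and rank the spots as the processed intensities do. The paper's methods name quantile normalization between arrays, and the full distributions of the columns were not compared here. The submitters' processing notes name R 3.4.3, limma 3.34.8 and build hg38.

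Here, log2 processed intensities were quantile-normalized within a time point, control and outlier spots were left out, and repeated spots were averaged. For testing, a probe had to lie above a threshold set at 3 SDs over the mean of 308 negative control spots, on 3 arrays or more, which all 10 condensin probes did at 24 h and 9 did at 48 h. The brightest probe stands for a gene. The interquartile range filter of the authors' methods was an alternative only, so that every subunit above background was tested. Models with siRNA group and slide (2 slides per time point, each with all 3 groups) were fitted with limma 3.58.1 in R 4.3.3 (statmod 1.5.0), with Benjamini-Hochberg adjustment over all tested probes, and called at an adjusted p below 0.01 and a log2 change of at least 0.5 (interactions at the adjusted p alone). Where no array of a group was well above background, a fold is a bound on the ratio of the group means. It sets the bright group's mean against the lowest signals well above background on the dim arrays, or the probe's own signal where higher. The spread between replicates and the choice of background correction are not in it. Replicates of a group correlated at 0.953 to 0.988 at 24 h and 0.962 to 0.986 at 48 h. The number of arrays limits the precision.

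At 48 h, the deviations of same-numbered samples from their group means correlated at 0.239 to 0.431 in all 10 pairs (median 0.293). Samples with other numbers on the same slide correlated at 0.121 to 0.388 (median 0.250), and those on different slides at -0.429 to -0.142. Same-numbered samples also share a slide, and the ranges for same and other numbers on a slide overlapped. Whether the number adds to the slide was not tested. The main fits held the slide, and the replicate block was an alternative. The alternatives were normexp (offset 50, on the median signals, which stood in for mean signals) and no background correction, scaling on the 75th percentile, the authors' log2 values, other probe filters and rules, a log2 change of at least 1, no slide term or a random one, the replicate block, only the groups compared, the dim array kept, and each array left out. The scripts were tested on simulated data. The genes followed, the 2 lists of related genes, the markers and the tests were chosen with earlier results of these data known. No deposited sample column was left unused. Some genes of the lists are not reported here. Promoter sequences are from RefSeq, build GRCh38.p14, and protein and probe sequences were not used here.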

Additional observations from a re-analysis of the deposited data

Results flagged for a closer look

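In 3 of 50 groups of 4 arrays, the highest array stood far from the other 3, where chance alone gives about 1 in 20. All were scramble arrays at 24 h. NCAPD2 read 8.97 in replicate 4, with the nearest array at 8.81. SMC2 read 7.44 in replicate 3, with the nearest at 6.90, and the second SMC4 probe read 7.69 in the same replicate, with the nearest at 7.07.

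The effect of si-A1 differed between 48 h and 24 h by limma's interaction test for SMC4 (-1.23) and NCAPD3 (-1.08), both larger at 48 h.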

How the results depend on the processing

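No change of a condensin subunit that was called turned its direction under any alternative. After si-A1 at 24 h, 5 subunits were called, 3 with only the groups compared in the fit and 3 to 5 with an array left out. After si-A2 at 24 h, 5 were called, 2 with only the groups compared and 2 to 5 with an array left out, and between the siRNAs 0 were called higher and 0 to 1 with an array left out. After si-A1 at 48 h, 6 were called, 1 with the dim array kept and 6 with any other array left out. After si-A2 at 48 h, 2 were called, 5 with normexp, 6 without background correction, 0 with the replicate block, with only the groups compared, without the filter on dim probes and with the dim array kept, and 0 to 1 with an array left out. Called higher after si-A2 than si-A1 at 48 h were 3, 1 with the replicate block, 0 with only the groups compared or the dim array kept, and 0 to 3 with an array left out. The si-A1 interaction had 2 calls, 1 without the slide term or with quantiles taken within each time point, 0 with the replicate block, without the filter or with the dim array kept, and 0 to 2 with an array left out. The cause of these shifts was not tested.

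At 24 h the deviations of same-numbered samples, which also share a slide, correlated at -0.153 to 0.162, with 3 of 12 pairs over 0.1. No pairing by number was seen there. With the replicate block in place of the slide, SMC2 after si-A1 (limma adjusted p = 0.0106) and NCAPD2 after si-A2 (adjusted p = 0.0235) were not called at 24 h, and beyond the 48 h and interaction calls named above the block changed no other call of a subunit.

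All probes called, either way, numbered 509 after si-A1 at 24 h (332 with the replicate block, 176 with only the groups compared, 290 with the interquartile filter, 266 to 443 with an array left out), 431 after si-A2 (193 with only the groups compared, 281 to 408 with an array left out), and 183 between the siRNAs (56 with the replicate block, 409 with normexp, 404 without background correction, 31 with only the groups compared, 35 with the interquartile filter, 299 with a filter on spots well above background, 34 to 356 with an array left out). At 48 h they numbered 3177 after si-A1 (2013 with normexp, 1660 without the slide term, 1096 at a log2 change of at least 1, 36 with the dim array kept, 1688 to 3391 with an array left out), 276 after si-A2 (590 with normexp, 747 without background correction, 132 without the slide term, 12 with the replicate block, 0 with only the groups compared or the dim array kept, 123 without the filter, 180 at a change of at least 1, 1 to 137 with an array left out), and 869 between the siRNAs (376 with the replicate block, 411 without the slide term, 192 with only the groups compared, 570 without the filter, 446 at a change of at least 1, 0 with the dim array kept, 104 to 871 with an array left out). Signal over background limits NCAPG and the second SMC2 probe, whose levels after knockdown are bounds.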

Other observations

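Of the 7 luminal prostate markers, 2 were called lower after si-A1 at 48 h, against 4.64% of probes. The 7 had a median change of -0.19, with 5 of 7 below 0. KLK2, a kallikrein made by the prostate epithelium, was called there (-1.04, SE 0.129, limma adjusted p = 0.00077). KLK2 was also the 1 of 7 called higher with si-A2 than with si-A1 at 48 h (0.91, SE 0.140, limma adjusted p = 0.00644), against 1.42% of probes. The median difference of the 7 was 0.03, with 3 of 7 below 0. KLK3, the gene for prostate-specific antigen, was at -0.84 after si-A1 at 48 h (limma adjusted p = 0.0166) and was not called. None of the 7 was called by limma after si-A2 at 48 h, against 0.676% of probes called either way. None was called at 24 h after si-A1 or si-A2 either, against 1.16% and 0.981% of probes.

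On the dim array of si-A2 replicate 2 at 48 h, which entered no comparison, the 2 SMC4 probes read 4.07 and 1.87, SMC2 read 3.89, NCAPG 2.41, NCAPH 4.77, NCAPG2 4.60 and NCAPD3 3.43, of which the NCAPG and NCAPD3 spots and the lower of the SMC4 spots were not well above background.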
